A study of Rattus norvegicus with 6 samples.

Results

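Genes of fat cells and fat storage were read in whole pancreas from rats on an ethanol diet and rats on a control diet. The set comprised 8 genes, Lpl, Pck1, Cfd, Adipor2, Fabp4, Adipoq, Cd36 and Lipe, listed by name. The rule that picks their probe sets uses no measured value, though the genes were listed with earlier results of these data known. Every probe set whose platform annotation gave 1 of these symbols and no other was used. That gave 7 probe sets of 7 genes, 1 each, of 15866 probe sets and 10411 genes. Adipoq, which encodes the fat cell hormone adiponectin, had no probe set annotated to it alone and was not analysed here. A further probe set annotated to Cd36 together with another symbol was left out by the same rule.

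The series asked how chronic ethanol consumption affects the rat pancreas. It held 3 rats on the ethanol diet and 3 rats on the control diet, and each rat gave 1 single-colour array, so the replicates were separate animals. The strain, sex, age, amount of ethanol and length of feeding are not given in the labels. Total RNA came from lysate of the whole organ, which holds acinar, duct, islet, vascular and connective tissue cells and may carry fat, so a level is an average over all of them.

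Fat cells store energy as triglyceride in a lipid droplet and release it as fatty acids and glycerol. Lpl, lipoprotein lipase, frees fatty acids from circulating lipoproteins at the vessel wall, and Cd36 and Fabp4 take up and carry them. Pck1, the cytosolic phosphoenolpyruvate carboxykinase, supplies the glycerol backbone in fat and glucose precursors in liver, and Lipe, hormone-sensitive lipase, helps to break stored fat down again. Cfd, the complement protease adipsin, is secreted by fat cells, and Adipor2 is a receptor for adiponectin. Several of these genes are not limited to fat cells, since Cd36, Fabp4 and Lpl are also made by endothelial cells or macrophages.

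The intensities of Pck1 and Cfd lay higher on all 3 ethanol arrays than on all 3 control arrays, and the stretch upstream of each is shown for that reason. RefSeq promoters of the GRCr8 assembly, from 250 bases before to 50 bases after the gene's start, were at hand for 5 of the 8 genes, namely Pck1, Cfd, Adipor2, Adipoq and Cd36. The Pck1 stretch is chr3:182348322-182348621 on the plus strand, and the Cfd stretch is chr7:10465447-10465746 on the minus strand. Both are written 5′ to 3′ along the gene, with matches to TGACGT or AGGTCA on either strand in capitals.
Pck1: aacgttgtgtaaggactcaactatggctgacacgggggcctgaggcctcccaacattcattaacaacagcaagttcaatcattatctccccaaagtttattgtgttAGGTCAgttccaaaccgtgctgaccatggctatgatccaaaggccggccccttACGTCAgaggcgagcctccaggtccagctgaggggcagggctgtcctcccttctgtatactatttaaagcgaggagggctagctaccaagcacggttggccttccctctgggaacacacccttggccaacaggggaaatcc
Cfd: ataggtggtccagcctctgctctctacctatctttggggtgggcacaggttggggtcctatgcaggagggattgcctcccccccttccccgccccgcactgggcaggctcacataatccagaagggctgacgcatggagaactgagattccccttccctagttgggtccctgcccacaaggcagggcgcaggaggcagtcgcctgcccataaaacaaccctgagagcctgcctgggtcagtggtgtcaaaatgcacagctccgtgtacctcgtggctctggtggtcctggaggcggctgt

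In the Pck1 stretch, TGACGT, a half-site of the cyclic AMP response element, was found on the opposite strand. On the printed strand it reads ACGTCA, whose first base lies at -91 from the gene's start. AGGTCA, the half-site of many nuclear receptors, was found at -144. TGACGT was present in 7.94% and AGGTCA in 16.2% of 33469 rat promoters of the same length, both strands searched. TATAAA and CCAAT, found in 14.2% and 37.5% of these promoters, were also searched. None of these 4 motifs was found in the Cfd stretch. Of the other stretches, Cd36 held TATAAA, and Adipor2 and Adipoq held CCAAT, Adipoq in 2 places. A match is only a match of letters, and a window without one says nothing of which factors act there.

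None of the 6 genes bright enough to test passed the test of diet. Lpl, Pck1 and Cfd had the larger differences, each higher on average in ethanol-fed rats, by log2 changes of 0.77, 0.73 and 0.69. Adipor2 averaged higher in ethanol-fed rats, by 0.23, and the fatty acid carriers Fabp4 and Cd36 lower, at -0.13 and -0.37. Each of these had a 95% interval that included 0, and the sign of Fabp4 turned without ethanol replicate 3. Lipe was too dim to test. The set therefore held genes on both sides of 0, and the fat cell genes of the set did not share 1 pattern over the 6 rats.

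The test was limma on log2(intensity + 50) over the 9520 probe sets in the brighter part of the array (mean log2 value from the 40th percentile up), with Benjamini-Hochberg adjustment over all of them. At an adjusted p under 0.05 it called 0 of the 6 tested members, beside 0.410% of all tested probe sets (0.105% higher and 0.305% lower in ethanol). At an unadjusted p under 0.05, 3 of the 6 were higher in ethanol (8.08% of all tested probe sets were) and 0 were lower (10.3% of all). The groups did not overlap, with ethanol higher, on 2 of the 6, against 11.1% of all tested probe sets. The median log2 change of the 6 was 0.46, beside 0.0002 over all tested probe sets. In a whole organ, fewer cells of a type and less RNA in each cell cannot be told apart.

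**Figure D1:**
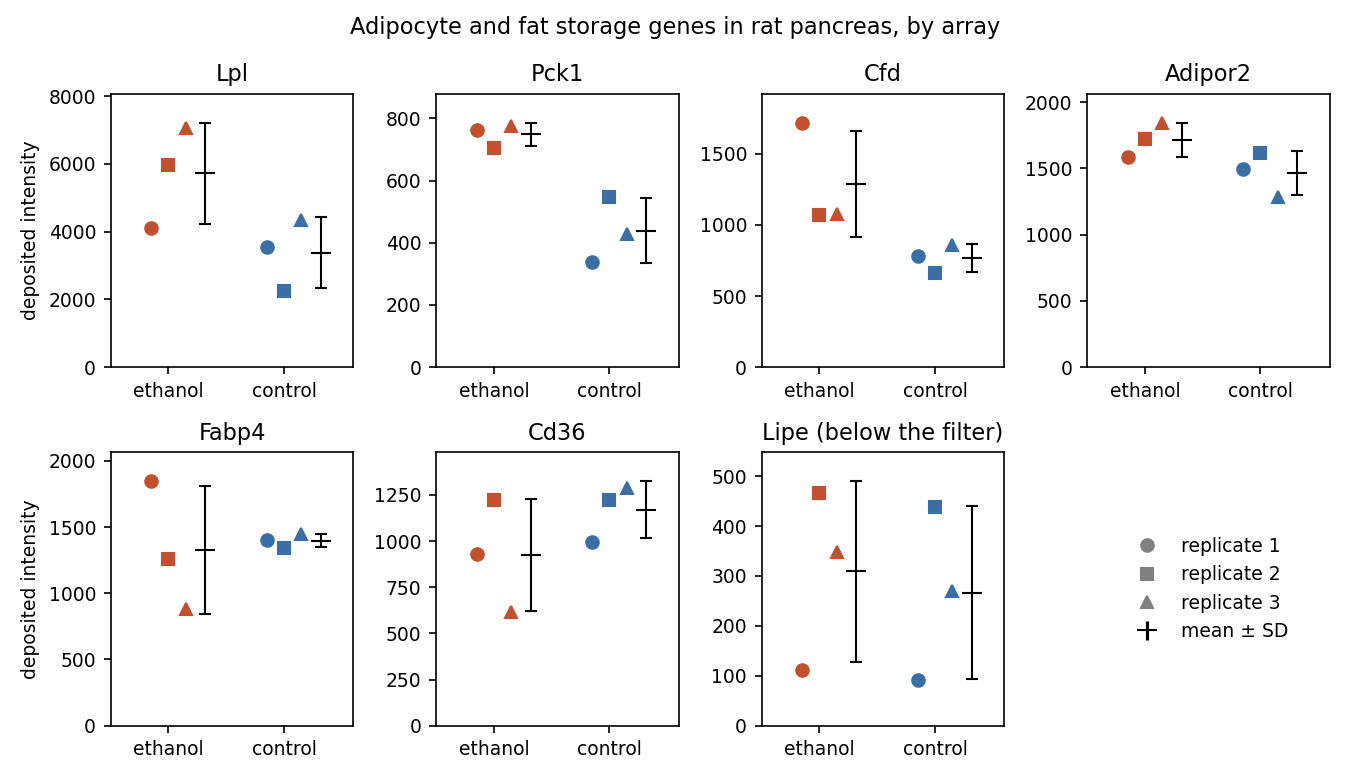
Deposited intensity (linear axis from 0) of the 7 measured genes on each array, with the mean ± SD of each diet beside the points and the marker shape giving the replicate. The diets separate for Pck1 and Cfd, and overlap for Lpl, Adipor2, Fabp4, Cd36 and Lipe.

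Of the tested members, Lpl had the largest log2 change. It read 4116, 5981 and 7065 in ethanol rats, against 3533, 2255 and 4353 in control rats. Ethanol replicate 1 lay below control replicate 3, so the diets overlapped, while the other ethanol rats lay above every control. The means were 5721 ± 1492 in ethanol rats and 3380 ± 1057 in control rats (SD, n = 3 each), a log2 change of 0.77 (SE 0.28, 95% interval 0.13 to 1.40, limma adjusted p = 0.201). Its interval, like the others given here, is for a single gene and is not adjusted for the number of genes tested. Without ethanol replicate 1 the log2 change was 0.98, and without control replicate 2 it was 0.50.

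The summed intensity of the 4 measured of 7 listed erythroid genes ran from 25617 to 33312 in ethanol rats and from 15433 to 22883 in control rats. On its brightest probe set, which entered the sum, none of the 4 was at or below 0 on any array. The brightest of them, the globin Hbb, read 18955, 25136 and 22509 in ethanol rats, against 11853, 10565 and 15979 in control rats (log2 change 0.80, SE 0.20, limma adjusted p = 0.107), and it makes up most of the sum. Hba-a3, the next, read 4683, 5415 and 6142 in ethanol rats, against 2935, 3051 and 4490 in control rats (log2 change 0.64, SE 0.20, limma adjusted p = 0.161). None of the 4 passed. The diets did not overlap, with ethanol higher, on 3 of the 4, against 11.1% of all tested probe sets. Slc4a1 overlapped on its brightest probe set. A dimmer probe set of Slc4a1, not tested, read 238, 233 and 118 in ethanol rats, against 43, -9 and 114 in control rats, without overlap. The mean deviation of the 4 by array was highest in ethanol replicates 2 and 3 and lowest in control replicates 1 and 2, as was that of Lpl. The part of blood content in the Lpl difference was not tested.

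Partners of Lpl were looked at next. Lmf1, the factor that lets lipoprotein lipase fold, read 1235, 844 and 842 in ethanol rats, against 693, 599 and 618 in control rats. All 3 ethanol values lay above all 3 control values, but the log2 change of 0.56 (SE 0.18) did not pass (limma adjusted p = 0.169). Gpihbp1, which holds the enzyme on the capillary wall and was chosen after its values were seen, read 2532, 1988 and 2280 in ethanol rats and 2093, 2168 and 2295 in control rats, a log2 change of 0.05 (SE 0.15). Angptl4, an inhibitor of the enzyme, read 963, 1341 and 727 in ethanol rats and 609, 553 and 1337 in control rats, and these ranges overlapped (log2 change 0.33, SE 0.34).

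Fatty acid carriers showed no common shift. Fabp4, the fatty acid binding protein of fat cells and macrophages, read 1846, 1256 and 880 in ethanol rats, against 1401, 1345 and 1450 in control rats. The control rats were close together and the ethanol rats lay on both sides of them, replicate 1 above and replicates 2 and 3 below. The means were 1327 ± 487 in ethanol rats and 1399 ± 52.5 in control rats (SD, n = 3 each), a log2 change of -0.13 (SE 0.24, 95% interval -0.69 to 0.42, limma adjusted p = 0.802). Leaving out ethanol replicate 3 turned the sign, to 0.12.

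Cd36, a membrane receptor that takes up long-chain fatty acids, read 930, 1222 and 618 in ethanol rats, against 997, 1225 and 1289 in control rats. Ethanol replicate 3 was the lowest of the 6, as it was for Fabp4, and ethanol replicate 2 lay within the controls. The means were 923 ± 302 in ethanol rats and 1170 ± 153 in control rats (SD, n = 3 each), a log2 change of -0.37 (SE 0.24, 95% interval -0.91 to 0.18, limma adjusted p = 0.446). Without ethanol replicate 3 the log2 change was -0.12, and without ethanol replicate 2 it was -0.58. Endothelial cells and macrophages also make these carriers. The summed intensity of the 7 measured of 9 listed endothelial markers ran from 4701 to 5848 in ethanol rats and from 4390 to 6139 in control rats, and the brightest of them, Esam and Emcn, had log2 changes of 0.24 (SE 0.17) and -0.22 (SE 0.25). That of the 6 measured of 9 listed macrophage markers ran from 8041 to 8639 in ethanol rats and from 7117 to 8107 in control rats, and the brightest, Lyz2 and Aif1, had log2 changes of 0.02 (SE 0.18) and 0.39 (SE 0.19). On the brightest probe set of each marker, at least 1 array gave a value at or below 0 for 1 endothelial marker, and none did for a macrophage marker. A dimmer probe set of Aif1, not tested, read -104, -16 and -115 in ethanol rats and -4, 17 and -93 in control rats. The part of either cell type in the Fabp4 and Cd36 values was not tested.

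Among the 11 tested genes of lipoprotein and fatty acid uptake, of 15 listed, none passed limma's adjusted test. Before adjustment 1 reached a p under 0.05, on the higher side, close to the 8.08% of all tested probe sets, and the list median was 0.05. The second gene of the list by p, the fatty acid transporter Slc27a2, read 586, 425 and 657 in ethanol rats and 506, 314 and 403 in control rats (log2 change 0.41, SE 0.21, limma adjusted p = 0.346).

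Pck1 had the smallest p of the set. Its intensity was 763, 706 and 776 in ethanol rats, against 339, 547 and 429 in control rats. The ethanol rats were close together and all above the controls, which were more spread. The means were 748 ± 37.2 in ethanol rats and 438 ± 104 in control rats (SD, n = 3 each), a log2 change of 0.73 (SE 0.18, 95% interval 0.32 to 1.14, limma adjusted p = 0.108). Over 14 alternative settings the log2 change lay between 0.58 and 0.89 and the adjusted p between 0.0992 and 0.274. Pck1 was also the tested member nearest to the intensity limit, with a mean log2 value of 9.27 where the limit was 8.79 and Lipe, just outside, had 8.23.

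Beside Pck1, other genes of glycerol and glucose formation were read. Of 8 tested genes of 12 listed, 4 averaged higher in ethanol rats and 4 lower, and the list median was 0.04. Limma's adjusted test called 0 higher and 1 lower, beside 0.105% and 0.305% of all tested probe sets. At an unadjusted limma p under 0.05, 2 were higher and 2 lower, beside 8.08% and 10.3% of all. The gene called was Slc37a4, which carries glucose 6-phosphate into the endoplasmic reticulum. It read 988, 951 and 809 in ethanol rats, against 2019, 2563 and 2150 in control rats (log2 change -1.25, SE 0.16, limma adjusted p = 0.0310). That call was lost without the intensity limit, with a replicate block, and in 5 of the 6 fits that left out 1 array, all but the one without ethanol replicate 1.

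Fbp2, a fructose bisphosphatase, read 2554, 2903 and 2457 in ethanol rats and 1710, 1903 and 2093 in control rats (log2 change 0.46, SE 0.15, limma adjusted p = 0.167). Pck2, the mitochondrial counterpart of Pck1, and Pdk4, a kinase that holds back pyruvate oxidation, were chosen after their values were seen. Pck2 read 3217, 4464 and 4534 in ethanol rats, against 5729, 6123 and 5448 in control rats, so all ethanol rats lay below all controls, as on 14.3% of all tested probe sets (log2 change -0.51, SE 0.17, limma adjusted p = 0.177). Pdk4 read 771, 1890 and 1596 in ethanol rats and 393, 899 and 543 in control rats (log2 change 1.13, SE 0.37, limma adjusted p = 0.169).

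Cfd, or adipsin, is secreted by fat cells. It read 1718, 1069 and 1079 in ethanol rats, against 780, 663 and 856 in control rats. All ethanol rats lay above all controls, with replicate 1 well above the other two ethanol rats. The means were 1289 ± 372 in ethanol rats and 766 ± 97.2 in control rats (SD, n = 3 each), a log2 change of 0.69 (SE 0.21, 95% interval 0.21 to 1.17, limma adjusted p = 0.158). Without ethanol replicate 1 the log2 change was 0.47. Other secreted factors of fat gave little to compare, since 3 of 10 listed genes were bright enough to test and none of them passed or reached an unadjusted p under 0.05. Agt, angiotensinogen, read 1022, 810 and 429 in ethanol rats and 810, 474 and 358 in control rats (log2 change 0.42, SE 0.35).

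Adipor2 read 1587, 1719 and 1842 in ethanol rats, against 1494, 1613 and 1282 in control rats. The ranges overlapped by a little, ethanol replicate 1 lying just below control replicate 2. The means were 1716 ± 128 in ethanol rats and 1463 ± 168 in control rats (SD, n = 3 each), a log2 change of 0.23 (SE 0.15, 95% interval -0.12 to 0.57, limma adjusted p = 0.453). Adipor1, the other adiponectin receptor, was chosen after its values were seen. It read 4103, 3743 and 3716 in ethanol rats and 4141, 3652 and 3825 in control rats (log2 change -0.01, SE 0.14).

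The list of adiponectin receptors and signalling, which includes Adipor1, had 10 tested genes of 13 listed, with a median log2 change of -0.002. None passed limma's adjusted test. With no adjustment, 1 of the 10 was higher and 2 were lower at a p under 0.05, beside 8.08% and 10.3% of all tested probe sets. The 2 lower genes had the smallest p. Appl1, an adaptor that binds the receptors, read 359, 338 and 337 in ethanol rats, against 605, 446 and 544 in control rats (log2 change -0.55, SE 0.15, limma adjusted p = 0.136). Prkag1, a regulatory subunit of the AMP-activated kinase, read 423, 798 and 829 in ethanol rats, against 1182, 1146 and 1253 in control rats (log2 change -0.82, SE 0.24, limma adjusted p = 0.148). The ethanol values of both lay below every control value, as on 14.3% of all tested probe sets.

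**Figure D2:**
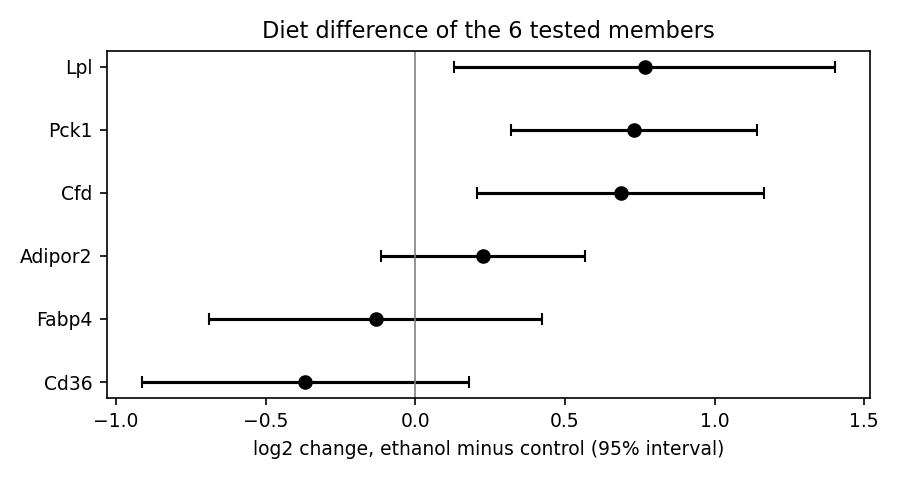
Log2 change, ethanol minus control, of the 6 tested members, with limma's 95% interval for each gene alone. The intervals of Lpl, Pck1 and Cfd lie above 0 and those of Adipor2, Fabp4 and Cd36 include it, while no member passed after adjustment over all 9520 tested probe sets.

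Lipe, the hormone-sensitive lipase, lay under the intensity limit. It read 112, 467 and 348 in ethanol rats and 92, 439 and 269 in control rats, so the rats differed far more within a diet than between diets. In the fit without an intensity limit its log2 change was 0.20 (SE 0.64, limma adjusted p = 0.925). The other genes of the lipid droplet and lipolysis were read on 7 tested genes of 14 listed, of which none passed. At an unadjusted limma p under 0.05, 0 were higher and 2 lower (10.3% of all tested probe sets were lower), and the list median was -0.05.

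Pnpla2, adipose triglyceride lipase, which takes the first step of fat breakdown, read 472, 491 and 455 in ethanol rats, against 701, 911 and 555 in control rats (log2 change -0.54, SE 0.19, limma adjusted p = 0.185). Plin3, a lipid droplet coat protein of many tissues, read 838, 857 and 632 in ethanol rats, against 1054, 1026 and 1115 in control rats (log2 change -0.44, SE 0.16, limma adjusted p = 0.196). Neither passed, and on both the ethanol values lay below all control values, as on 14.3% of all tested probe sets.

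Triglyceride synthesis gave a median of -0.05 over 9 tested genes of 14 listed, with none called. At an unadjusted limma p under 0.05, 0 were higher and 1 lower, the lower count close to the 10.3% of all tested probe sets. The lower one was Lpin3, a lipin, the family of phosphatases that make the diacylglycerol needed for triglyceride. It read 1455, 1828 and 1518 in ethanol rats, against 2819, 2395 and 2750 in control rats (log2 change -0.72, SE 0.15, limma adjusted p = 0.0887). Its relative Lpin1 read 679, 534 and 503 in ethanol rats and 459, 522 and 470 in control rats (log2 change 0.21, SE 0.16, limma adjusted p = 0.500).

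Fat cell transcription factors and insulin response genes had a median log2 change of 0.12 over 8 tested genes of 14 listed. None passed limma's adjusted test. Before adjustment, 2 were higher and 0 lower at a p under 0.05, beside 8.08% and 10.3% of all tested probe sets. Klf15, a transcription factor of fat cells, muscle and liver, read 9110, 8485 and 9768 in ethanol rats, against 5074, 5443 and 5009 in control rats (log2 change 0.81, SE 0.14, limma adjusted p = 0.0571). Slc2a4, the insulin-responsive glucose transporter of fat and muscle, read 568, 571 and 757 in ethanol rats, against 506, 395 and 445 in control rats (log2 change 0.45, SE 0.17, limma adjusted p = 0.213), and a dimmer probe set of it, not tested, was at 0.40. Pparg, the main regulator of fat cell formation, was chosen after its values were seen. It read 937, 321 and 467 in ethanol rats and 569, 672 and 530 in control rats (log2 change -0.15, SE 0.32), with ethanol replicate 1 the highest of the 6. Of thermogenic fat, 1 of 8 listed genes could be tested: Cpt1b, the muscle and brown fat form of the mitochondrial carnitine transferase, read 876, 586 and 518 in ethanol rats and 455, 364 and 554 in control rats (log2 change 0.47, SE 0.22, limma adjusted p = 0.311).

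**Figure D3:**
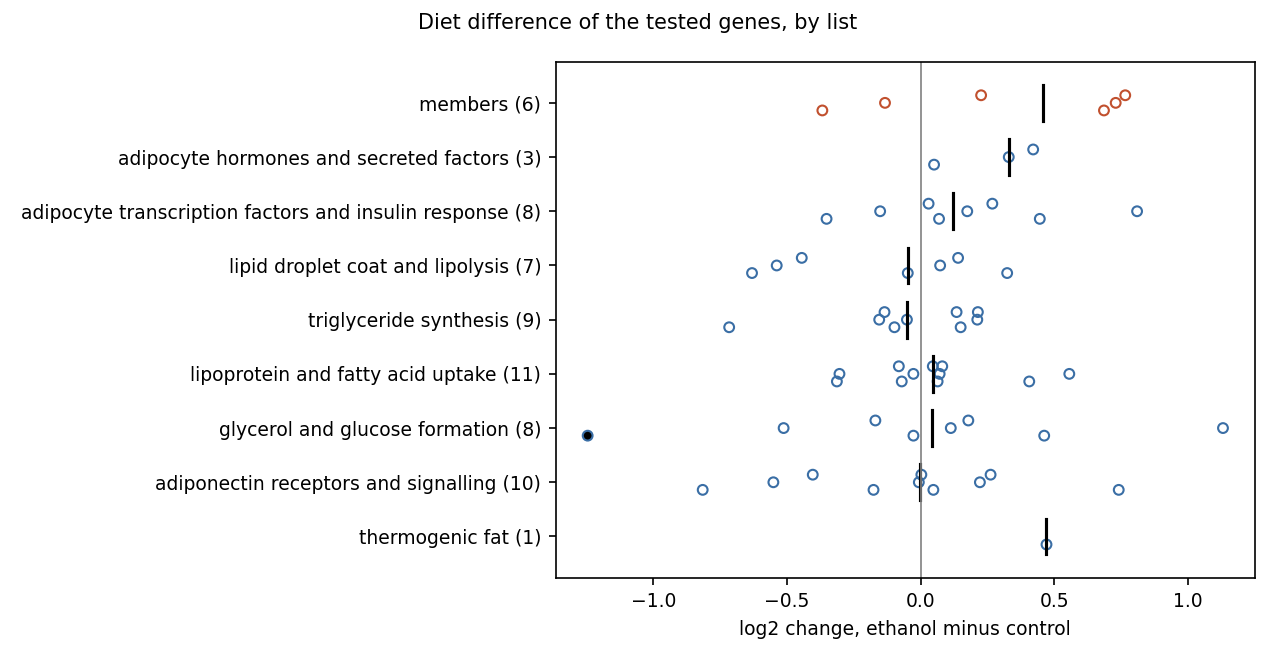
Log2 change, ethanol minus control, of each tested gene, by list, with the number tested in brackets and the list median as a black line; filled points passed limma's adjusted test. The members (top) span both sides of 0, and the single filled point is Slc37a4, at -1.25. Of 57 tested genes in the related lists together, 32 were above 0 and 25 below, with a median of 0.05.

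Whether the members varied together from rat to rat was described by the deviation of each gene from its own mean over the 6 arrays. The mean deviation of the 7 measured members was 0.08, 0.28 and 0.09 on the log2 scale in ethanol replicates 1, 2 and 3, against -0.34, -0.07 and -0.04 in control replicates 1, 2 and 3. Lipe, the dimmest, weighed heavily in it. Over the 6 members above the intensity limit the mean deviation was 0.24, 0.20 and 0.04 in the ethanol replicates, against -0.22, -0.20 and -0.06 in the control replicates. In both forms the ethanol rats lay above the controls, but not every gene followed the mean: across the 6 arrays Pck1 correlated with the mean of the 7 at r = 0.86, Fabp4 at r = -0.20 and Cd36 at r = -0.06. Of the 21 pairs of members, 12 had a positive correlation over the 6 arrays and 9 a negative one, with a median r of 0.18. On deviations from each diet's mean, 9 were positive and 12 negative, with a median of -0.19. These correlations share 6 arrays and are given as a description.

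**Figure D4:**
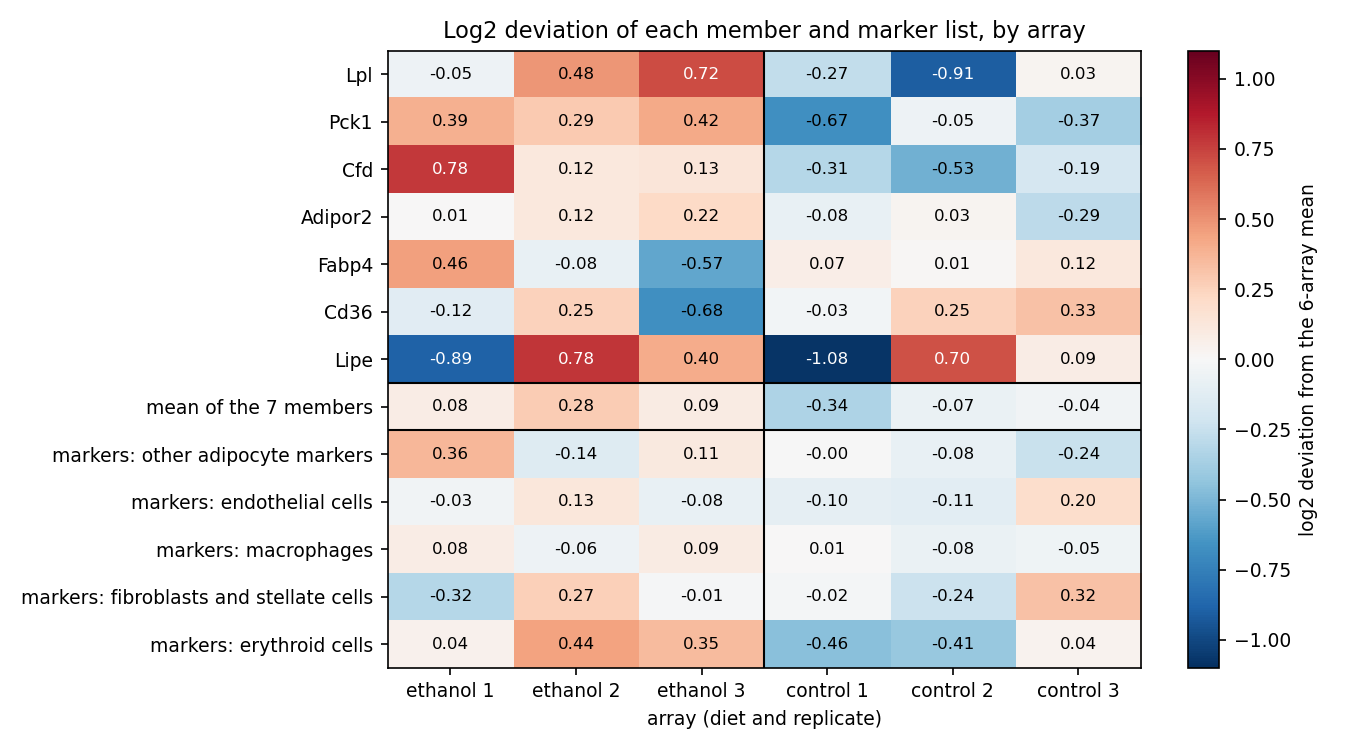
Log2 deviation of each member, of the mean of the 7 members and of the tested genes of 5 marker lists from their own 6-array mean, by array, with ethanol arrays on the left. Cfd and Fabp4 are both high in ethanol replicate 1, at 0.78 and 0.46, and Fabp4 and Cd36 both low in ethanol replicate 3, at -0.57 and -0.68, where Lpl is high, at 0.72.

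In place of Adipoq, Cfd was set against each of the other 6 measured members over the 6 arrays. None of the 6 relations had a two-sided exact permutation p under 0.05, before or after Benjamini-Hochberg adjustment over the 6. Because the diets did not overlap in Cfd, a correlation over all arrays cannot be told apart from a diet difference, so deviations from each diet's mean were used as well. With Pck1, r was 0.68 over all arrays (exact permutation p = 0.135, adjusted 0.599; Spearman's rho 0.77, exact permutation p = 0.103, adjusted 0.350) and -0.19 within diets (exact permutation p = 0.722). With Lpl, r was 0.51 over all arrays (exact permutation p = 0.293; rho 0.66, exact permutation p = 0.175) and -0.23 within diets (exact permutation p = 0.722). Leaving out the 2 arrays farthest from the median of Cfd, ethanol replicate 1 and control replicate 2, gave r of 0.979 for Lpl and 0.997 for Pck1 over the remaining 4 arrays, 2 of each diet. The diets did not overlap in Cfd on those 4 arrays either, so r over them cannot be told apart from a diet difference.

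Fabp4, like Cfd a product of fat cells, had r = 0.29 with it over all arrays (exact permutation p = 0.590; rho 0.09, exact permutation p = 0.919) and r = 0.83 within diets (exact permutation p = 0.0833, adjusted 0.250, where the smallest p that 36 orders allow is 0.0278). Over all arrays, r turned to -0.65 without ethanol replicate 1, and to -0.75 without it and control replicate 2. The correlation within diets was not recomputed without a rat. Adipor2, Cd36 and Lipe had r of 0.28, -0.40 and -0.33 with Cfd over all arrays, with exact permutation p from 0.425 to 0.599 and rho of 0.31, -0.66 and -0.09 (exact permutation p from 0.175 to 0.919). Without ethanol replicate 1 and control replicate 2 these became 0.79, -0.39 and 0.89 over 4 arrays, and Lipe also turned sign, to 0.27, without ethanol replicate 1 alone. Within diets, the r of Adipor2, Cd36 and Lipe were -0.76, 0.08 and -0.76 (exact permutation p from 0.0833 to 0.833).

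Of 10 other listed markers of fat cells, 8 had a probe set and 5 lay above the intensity limit, above which 9520 of all 15866 probe sets lie. The summed intensity of the 8 was 5796, 3928 and 4838 in ethanol rats and 4397, 4312 and 3839 in control rats. Ethanol replicate 1 was the highest, as it was for Cfd and Fabp4, but it was the lowest ethanol rat for Lpl, Adipor2 and Lipe. Of the 5 tested, none passed, 4 averaged higher in ethanol rats and 1 lower, and the median log2 change was 0.27. At an unadjusted limma p under 0.05, 1 was higher and 0 lower (8.08% and 10.3% of all tested probe sets). The diets did not overlap, with ethanol higher, on Slc2a4 and Adrb3, 2 of the 5, against 11.1% of all. Gpd1, which makes glycerol 3-phosphate, and the adrenergic receptor Adrb3 were the brightest of the 8. Gpd1 read 1656, 1250 and 1116 in ethanol rats and 1226, 1188 and 998 in control rats (log2 change 0.21, SE 0.18). Adrb3 read 983, 1014 and 1193 in ethanol rats and 847, 874 and 893 in control rats, without overlap (log2 change 0.27, SE 0.14). Plin1, the lipid droplet coat of fat cells, and Lep, leptin, are among the defining fat cell genes and were both under the limit. Chosen after their values were seen, Plin1 read 217, 190 and 78 in ethanol rats and 76, 259 and 177 in control rats, and Lep 314, 79 and 233 in ethanol rats and 149, 80 and 202 in control rats. How far the members' signal came from fat cells was not tested.

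The genes outside the set whose tested probe sets followed the mean deviation of the 7 members most closely over the 6 arrays were the growth factor Igf1 (r = 0.984), the synaptic scaffold protein Homer1 (r = 0.980), the transcriptional corepressor Cbfa2t3 (r = 0.978), the growth inhibitor Btg1 (r = 0.975), the natriuretic peptide receptor Npr1 (r = 0.973) and the scavenger receptor Scarf2 (r = 0.966). Of all tested probe sets, 97 of 9520 probe sets, or 1.02%, had r above 0.9, and 94 had r below -0.9. Igf1 read 3509, 4207 and 3520 in ethanol rats, against 2303, 2733 and 2960 in control rats (log2 change 0.49, SE 0.16, limma adjusted p = 0.170). None of these 6 genes is a listed fat cell gene. All 6, like the mean itself, lay higher on every ethanol array than on every control array. These r values therefore cannot be told apart from a diet difference. The mean also includes Lipe, which lay under the intensity limit.

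Over the series as a whole, log2 values of arrays correlated at r from 0.925 to 0.944 within diets and from 0.913 to 0.929 between diets, a correlation over probe sets and not over independent replicates. The ratio of 3′ to 5′ signal of beta-actin, a measure of RNA integrity, ran from 1.54 to 1.78 in ethanol rats and from 1.44 to 2.01 in control rats. Summed duct cell markers (6 measured of 8 listed, none at or below 0) ran from 10341 to 10856 in ethanol rats and from 11504 to 12704 in control rats. Most of that difference lay in 1 gene, Muc1, which read 7526, 7234 and 7654 in ethanol rats and 9092, 8542 and 9442 in control rats, and none of the 5 tested duct genes passed or reached an unadjusted p under 0.05 in limma. Summed hepatocyte markers (9 of 9 listed, Apoa1 at or below 0 on every array) ran from 6662 to 6928 in ethanol rats and from 5512 to 6687 in control rats. The sums of acinar, islet, lymphocyte and fibroblast markers overlapped between diets.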

How the data were processed

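The authors deposited 1 intensity for each probe set on each array, a whole number on a linear scale. How they corrected background and normalized is not given in the sources used here. From 931 to 949 values per array lay below 0, so background had been subtracted, and the array medians of 543 or 544 show that array distributions had been made nearly equal, which hides any difference in total RNA. Biotin-labelled cRNA was made from total RNA, per the labels' protocols. No scan dates or detection calls were used.

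Of 15923 probe sets, 57 controls were left out. The platform annotation gave 1 symbol for 12783, several for 312 and none for 2771; gene IDs of 12748 were found in RefSeq, and no symbol changed. Values below 0 were set to 0, 50 was added and log2 taken, so fold changes of dim probe sets are understated. Probe sets at or above the 40th percentile of mean log2 value were tested (9520, of 7106 genes) with limma 3.58.1 in R 4.3.3, ethanol minus control, without a block, and the median SE was 0.18. A gene with several probe sets is represented by its brightest. The procedure was tested on simulated data. Correlations were tested by exact permutation in Python 3.11.15. The number of arrays limits the precision.

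The members and gene lists were chosen with earlier results of these data known. Named genes are all members, the 2 genes of smallest p in each related list, the 2 brightest genes of each marker list that is set beside a result, and the 6 genes most like the members' mean, and the text says where another gene was picked with its values in view. Same-numbered rats of the 2 diets had deviations that correlated at -0.03, 0.03 and -0.14, so the numbers were not taken as pairs.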

Additional observations from a re-analysis of the deposited data

How the results depend on the processing

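The count of members called by limma was 0 in the reported fit and under all 15 alternatives. At an unadjusted limma p under 0.05 there were 2 or 3 members each time, not always the same ones. Without ethanol replicate 2, Lpl (log2 change 0.72) left that count and Cd36 entered it on the lower side (-0.58). Lpl also left it without a filter, without ethanol replicate 3 and without control replicate 2. Of all tested probe sets, 1747 of 9520 reached that p as reported, from 1243 without control replicate 2 to 2263 of 15866 without a filter. All 6 tested members kept the sign of their change under the alternatives, with 1 exception, Fabp4, whose change ran from -0.39 to 0.12 with 1 array left out and was positive without ethanol replicate 3. Pck1 lay under the filter at the 60th percentile and has 14 alternatives. Each member has 1 probe set, so averaging probe sets could not change it.

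The count over all tested probe sets, 39 as reported, was 12 with a constant of 20, 0 without a filter (2263 before adjustment at p under 0.05), 134 with a filter at the 60th percentile, 249 with a variance trend, 228 at an adjusted p under 0.10, and 6 with the replicate block. Leaving out 1 array gave 2 to 38. Among related genes, 1 was called as reported, 2 with a constant of 100 or quantile normalization, 3 with the 60th percentile filter, the variance trend or an adjusted p under 0.10, and 0 without a filter or with the replicate block (17 and 15 at an unadjusted p under 0.05). It was 0 to 1 with 1 array left out. The added genes were Klf15 and Lpin3. The cause was not tested.

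Of the 6 relations with Cfd, 0 had an exact permutation p under 0.05 as reported, and 0 to 1 with 1 array left out. The 1 was Lpl without ethanol replicate 1 (r = 0.987, exact permutation p = 0.00833, not adjusted). The diets did not overlap in Cfd there either, so that r cannot be told apart from a diet difference. Within diets, over all 6 arrays, the r of Lpl was -0.23. With 3 arrays per diet, the standard errors of the members' log2 changes were 0.15 to 0.28.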

Other observations

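Several hormones and secreted factors of fat lay below the intensity limit, and their values, chosen after they were seen, are given without a test. Rbp4, the retinol carrier that fat and liver secrete, read 731, 288 and 226 in ethanol rats, against 99, 43 and 147 in control rats. All 3 ethanol values lay above all 3 control values. The same held on 11.1% of the tested probe sets, which are brighter than Rbp4, and the share among dimmer probe sets was not computed. Nampt, the enzyme of NAD salvage also known as visfatin, read 211, 196 and 194 in ethanol rats, against 99, 107 and 133 in control rats, again without overlap. Of the other genes of that list under the limit, Lep, Apln and Nnat overlapped between diets, and of the 2 probe sets of Apln 1 averaged lower in ethanol, by a log2 change of -0.26. Agpat2, an acyltransferase of triglyceride synthesis, lay on the other side, at 149, 265 and 259 in ethanol rats, against 288, 478 and 703 in control rats. The fit without an intensity limit, by limma, called 0 of 15866 probe sets, these included, with 2263 at an unadjusted p under 0.05.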
